A study of Mus musculus with 4 samples.

Results

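Tetraspanins are membrane proteins that cross the membrane 4 times. The members described here were the 31 mouse genes listed for the family, Tspan7 and 30 relatives, found by matching the Ensembl identifiers of the deposited count table to gene symbols. All 31 were among the 52636 genes of the table. The samples were pancreatic islets, the hormone-secreting cell clusters of the pancreas, from wild-type mice (2 control libraries) and from Tspan7 knockout mice of genotype Tspan7 y/- (2 libraries). Tspan7 is X-linked, so these animals carry no second copy. The sample labels call the gene knocked out and the series text calls it knocked down. The sources used here give no strain, no age and no design of the allele. The labels do not tie the libraries to separate animals, so p-values measure only the spread between these libraries, which may be technical.

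Tetraspanins bind one another, integrins, proteases and immunoglobulin-superfamily proteins, and gather them into patches of the plasma membrane and of endosomes. One subfamily, TspanC8, moves the protease ADAM10 out of the endoplasmic reticulum and helps to set which proteins it cuts. Tspan7 is abundant in neurons and in islet endocrine cells, it binds PICK1 and affects the traffic of AMPA receptors in neurons, and it is an autoantigen of type 1 diabetes. The comparison of knockout and control islets asks here whether the RNA of any relative is higher when Tspan7 is lost.

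All tetraspanins share the residues Cys-Cys-Gly in their large extracellular loop. In the GENCODE M21 transcripts all 31 members held codons for it in frame on the sense strand, written as TGCTGCGG, TGCTGTGG, TGTTGCGG or TGTTGTGG followed by any base, against 2.62% of 21526 mouse coding sequences of any length. The windows below are 60 bases of coding sequence, read 5′ to 3′ on the sense strand with the 3 codons in capitals, and show how many letters the relatives share with Tspan7 around its best conserved residues. Shown are Tspan7, Tspan6 (the relative closest in sequence), Tspan13, Cd63, Tspan2 and Tspan3 (relatives with high RNA levels in islets) and Cd53 (the relative with the smallest p between the groups).
Tspan7: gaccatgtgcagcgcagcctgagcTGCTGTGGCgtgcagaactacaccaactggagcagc
Tspan6: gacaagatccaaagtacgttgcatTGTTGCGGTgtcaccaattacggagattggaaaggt
Tspan13: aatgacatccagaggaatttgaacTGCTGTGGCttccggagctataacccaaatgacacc
Cd63: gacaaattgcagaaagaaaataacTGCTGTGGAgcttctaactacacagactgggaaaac
Tspan2: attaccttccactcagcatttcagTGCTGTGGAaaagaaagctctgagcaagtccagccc
Tspan3: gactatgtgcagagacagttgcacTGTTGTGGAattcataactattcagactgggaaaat
Cd53: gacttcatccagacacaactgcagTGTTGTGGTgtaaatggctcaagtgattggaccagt

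The Tspan7 window spans coding bases 424 to 483, counted from the A of the start codon. Of its 60 bases, compared place by place without gaps, 30 were the same in the Tspan6 window. There were 33 in Tspan13, 35 in Cd63, 18 in Tspan2, 37 in Tspan3 and 31 in Cd53. Over all relatives the most was 40, in Tspan15, whose window is not shown. Over whole coding sequences, aligned end to end, the relatives were 42.0% to 61.8% identical to Tspan7 with a median of 48.7%. Tspan6, which is also on the X chromosome, stood highest, followed by Cd63 at 52.5% and Cd151 at 52.2%. None of the 701 stretches of 50 bases in the coding sequence of Tspan7 occurred in a transcript of another gene. Over all annotated Tspan7 transcripts 0.745% of such stretches did, and 1 relative, Tspan15, held any of them.

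Library totals ran from 7855665 to 9377220 counts, and 3 counts, taken as the detection floor, corresponded to 0.320 to 0.382 CPM, the counts scaled to library size. Intervals on counts cover counting error only. The 15 islet markers were all above the low-count filter and summed to between 30500 and 37100 CPM, so every library held islet RNA. The highest of them by control level was the glucagon gene Gcg. It measured 7530 and 5820 CPM in control and 6900 and 6350 CPM in knockout libraries. The insulin gene Ins2 measured 6310 and 5670 CPM against 5290 and 7060 CPM. Markers of acinar cells, the enzyme-secreting cells around the islets, summed to 3030 and 73.1 CPM in the control libraries and 1360 and 6380 CPM in the knockout libraries. Lymphocyte markers summed to 2.25 to 3.07 CPM, with the B-cell gene Ms4a1 at 0 in all 4 libraries.

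Tspan7 (ENSMUSG00000058254) gave 1924 and 1795 counts in control islets, and only 3 and 2 counts remained in knockout islets. The groups were far apart. Scaled for library size, the 5 knockout counts against 3719 control counts gave a level of 0.140% of control (95% exact binomial interval 0.0454% to 0.327%), and the log2 fold change was -9.42 ± 0.25 (SE, adjusted p = 3.53e-06, edgeR). Every library thus carried the Tspan7 level that its label calls for.

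Levels of different genes were compared as CPM per kilobase of annotated exon. In control islets Tspan13, a tetraspanin known to associate with a voltage-gated calcium channel, had the highest level of the family at 126 ± 12.6 CPM per kilobase (SD, n = 2). Cd63, a tetraspanin of late endosomes and lysosomes, came next at 62.3 ± 4.27. Neither overlapped its neighbour in the order. Tspan2, best known from myelin-forming cells, stood at 39.6 ± 6.80 and Tspan3 at 35.9 ± 6.73. Tspan7 had rank 5 at 29.5 ± 3.68 CPM per kilobase, and rank 1587 among the 16886 tested genes that had a length. Tspan31 (26.9 ± 0.421) and Cd81 (26.2 ± 5.63) followed. From Tspan2 down to Cd82, at rank 10, the 2 control libraries of each gene overlapped those of the next. The order of such neighbours is not settled by these libraries. Tspan3, Tspan31 and Cd81 overlapped Tspan7. Members further apart did not: both Tspan2 values (44.4 and 34.8) lay above both Tspan7 values (32.1 and 26.9). The Tspan7 values in turn lay above those of Tspan8 (15.2 and 23.1), Tspan5 (15.7 and 13.1) and Cd82 (10.9 and 16.1). Of the 30 neighbouring pairs in the whole order 23 overlapped.

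The first 3 members held 52.0% and the first 10 held 89.8% of the family's summed level in control islets. Tspan7 alone held 6.73% ± 0.691 (SD, n = 2). At the other end, Tspan6 had 1.06 ± 0.0419 CPM per kilobase and Tspan1 0.498 ± 0.132, and 7 members had too few counts to be tested.

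The place of Tspan7 depended on the length used. Its annotated exons cover 7067 bases because of a long transcript, while the transcript with its longest coding sequence has 1733 bases. Divided by the latter kind of length, Tspan7 had rank 4 at 120 CPM per kilobase, after Cd63 at 216, Tspan3 at 182 and Tspan13 at 161, and its share of the family was 12.6%. Which transcripts the counts came from is not recorded in a table of counts per gene.

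**Figure D1:**
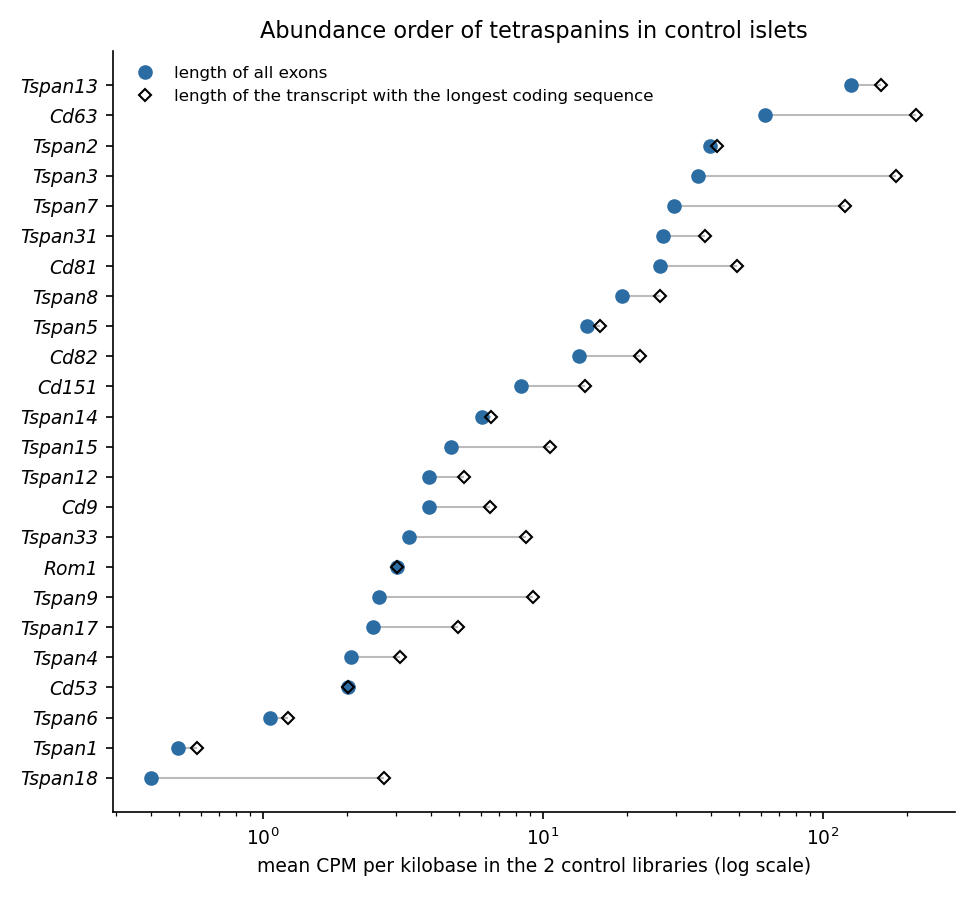
Mean level of each tetraspanin above 0.2 CPM per kilobase in the 2 control libraries, on a log axis, with 1 row per gene. Filled circles divide by the length of all annotated exons and open diamonds by the length of the transcript with the longest coding sequence. Tspan7 has rank 5 by the circles (29.5) and rank 4 by the diamonds (120).

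Of the 30 relatives, 23 passed the low-count filter, which looks at counts in any 2 libraries, and were tested along with Tspan7. No relative was called at an adjusted p under 0.05 by edgeR (0 higher and 0 lower), and none by DESeq2 or limma-voom. Over all 16924 tested genes edgeR called 0% higher and 0.00591% lower, which is Tspan7 itself, and DESeq2 called 0.0125% of its 32032 genes in either direction. The adjusted p was 1 for every tested relative. At an unadjusted p under 0.05 there were 0 relatives higher and 1 lower (Cd53), against 1.55% higher and 1.96% lower of all genes.

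Among the 23 tested relatives 8 had positive and 15 negative log2 fold changes, against 50.6% positive and 49.4% negative of all genes. Their median was -0.15, and it was 0.00332 over all tested genes. In 4 relatives both knockout values were under both control values (Cd53, Cd151, Tspan31 and Cd63), and in 1 they were above (Tspan9). Of all tested genes 15.0% had the first arrangement and 15.3% the second. Without control replicate 2 the median of the relatives was -0.01.

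**Figure D2:**
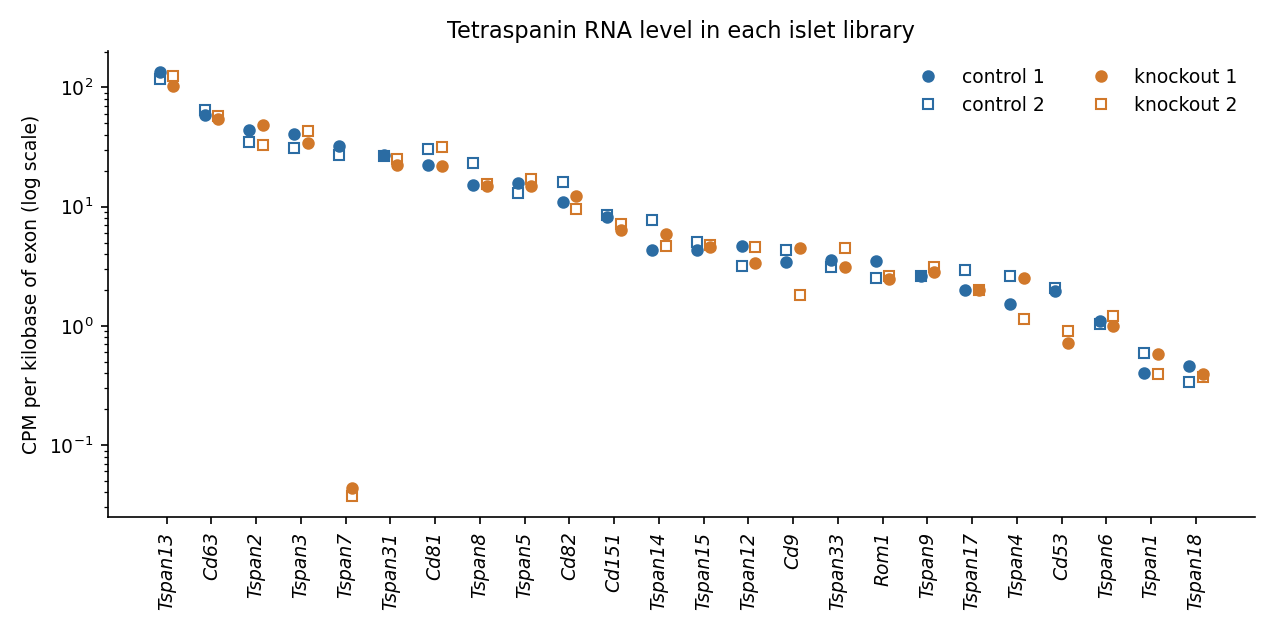
Level in each library of the 24 tested members, in CPM per kilobase of exon on a log axis, ordered by the control mean. Blue marks are control and orange marks knockout libraries, filled circles replicate 1 and open squares replicate 2. The knockout marks of Tspan7 lie at 0.0374 and 0.0439 while its control marks lie at 26.9 and 32.1, and most relatives have blue and orange marks at similar heights.

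The TspanC8 members showed no detectable difference. Tspan5, the one with the most RNA, measured 116 and 96.8 CPM in control and 110 and 126 CPM in knockout libraries. Its groups overlapped, and its log2 fold change was 0.15 (95% CI -0.20 to 0.50). Tspan15 measured 35.7 and 41.4 CPM against 37.8 and 38.8 CPM, with the control libraries on either side of the knockout libraries (-0.01, 95% CI -0.35 to 0.33). Tspan33, known from erythroid and B cells, measured 18.5 and 16.2 CPM against 16.0 and 23.2 CPM (0.17, 95% CI -0.33 to 0.67), with knockout replicate 2 alone above the rest.

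Tspan14 measured 11.6 and 20.6 CPM in control and 15.7 and 12.4 CPM in knockout libraries, and Tspan17 3.30 and 4.87 CPM against 3.31 and 3.30 CPM. Control replicate 2 was the highest library for both. Tspan10 gave 1 count in all 4 libraries together and was not tested. Summed over the 6 members, the TspanC8 level was 30.0 and 32.1 CPM per kilobase in control and 30.5 and 33.0 in knockout libraries.

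The members known for binding integrins and for their presence on extracellular vesicles gave mostly small negative values, 6 of 9 tested, with a median of -0.15. Cd63 measured 218 and 241 CPM in control and 202 and 212 CPM in knockout libraries. The groups did not overlap, but the gap was small beside the spread (log2 fold change -0.15, 95% CI -0.46 to 0.16). Cd151, which binds laminin-binding integrins, measured 22.5 and 23.2 CPM against 17.6 and 19.5 CPM (-0.30, 95% CI -0.68 to 0.08, unadjusted p = 0.106, edgeR), again with no overlap. Markers of endothelial cells, which also make Cd151, summed to 569 and 587 CPM in control and 487 and 562 CPM in knockout libraries (9 of 11 tested with negative values, none at 0 in every library), and their part in the value of Cd151 was not tested.

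Tspan8, an epithelial tetraspanin, measured 25.9 and 39.3 CPM in control and 25.1 and 26.3 CPM in knockout libraries (-0.35, 95% CI -0.83 to 0.14). Here 3 libraries were alike and control replicate 2 stood above them. The value was -0.01 without that library. Cd82, known as a suppressor of metastasis, had its highest value in the same library, with 32.8 and 48.4 CPM against 36.6 and 28.7 CPM (-0.31, 95% CI -0.81 to 0.19), and its value was -0.00 when it was left out. Cd81 measured 64.0 and 86.9 CPM against 62.9 and 91.4 CPM (0.03, 95% CI -0.48 to 0.54), so that its replicates differed more than its groups. Ductal markers, of the pancreatic epithelium, summed to 1620 and 1630 CPM against 1440 and 1250 CPM (7 of 10 tested with negative values), with Cftr at 0 in both controls. Their part in Tspan8 and in the other epithelial members was not tested.

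Tspan2 had its highest and its lowest values within the knockout group, at 211 and 165 CPM in control and 232 and 156 CPM in knockout libraries (0.04, 95% CI -0.45 to 0.54). Tspan9, known from platelets, measured 13.1 and 12.9 CPM in control and 14.2 and 15.6 CPM in knockout libraries. It was the relative with the highest log2 fold change, 0.19 ± 0.19 (95% CI -0.23 to 0.62, unadjusted p = 0.329, edgeR), and the only one with both knockout libraries above both controls. In Cd9, a tetraspanin of vesicles and of cell fusion, knockout replicate 2 stood apart at 3.70 CPM, against 9.11 CPM in the other knockout library and 7.07 and 8.90 CPM in the controls. Without it the log2 fold change was 0.19, and -0.29 with it. Cd9 shares 218 exonic bases with Gm26728 on the opposite strand, and that gene had the same order, at 18 and 25 against 28 and 10 counts. Tspan4, known from migrasomes, also had control replicate 2 and knockout replicate 1 above the others, with 3.30 and 5.72 CPM against 5.48 and 2.51 CPM. Tspan4 shares 292 exonic bases with Chid1 on the opposite strand, whose counts ran from 412 to 492, and the sources used here do not state whether strand was used in counting. The same holds for Cd151 and Gm10575 (193 bases), Cd81 and R74862 (104 bases) and Tspan2 and Tspan2os (88 bases).

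Among the members without a shared role Tspan13 had the most RNA. It gave 334 and 290 CPM in control and 256 and 307 CPM in knockout libraries, with overlapping groups (-0.15, 95% CI -0.49 to 0.20). Tspan3 measured 174 and 133 CPM against 145 and 183 CPM (0.09, 95% CI -0.32 to 0.51), the lowest and the highest library being in different groups. Tspan31 measured 59.7 and 58.3 CPM against 49.3 and 55.2 CPM (-0.18, 95% CI -0.49 to 0.14), without overlap. Tspan31 shares 641 exonic bases with the cell-cycle kinase gene Cdk4 on the opposite strand, so its counts carry the same uncertainty about strand.

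Tspan6, the relative closest to Tspan7 over the whole coding sequence, gave counts of 19 and 20 in control and of 20 and 19 in knockout islets. The level ran from 2.07 to 2.51 CPM and the groups overlapped (log2 fold change 0.06, 95% CI -0.77 to 0.90). The interval reaches a 1.86-fold rise, which at this level would bring 0.912 CPM per kilobase against the 29.5 lost with Tspan7. Tspan12, which acts with the receptor FZD4 in Norrin signalling, stood at 0.01 (95% CI -0.58 to 0.60), Tspan18, known from calcium entry in endothelial cells, at -0.06 (-0.82 to 0.70) and Tspan1 at -0.02 (-1.17 to 1.13). Tspan11 gave 0 counts in all 4 libraries, so its level lay under the floor of 3 counts a library.

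**Figure D3:**
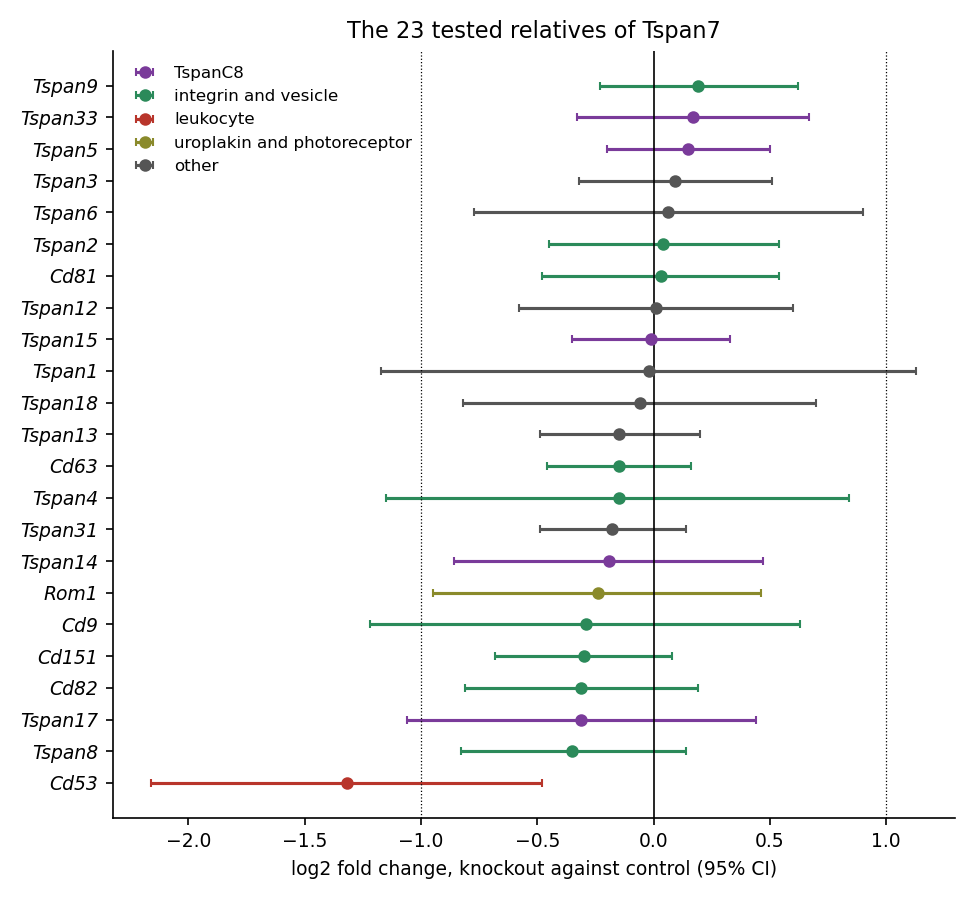
Log2 fold change of the 23 tested relatives, knockout against control, with 95% confidence intervals from the edgeR fit and colours for the role groups. Dotted lines mark a 2-fold difference. All intervals except that of Cd53 (-2.16 to -0.48) include 0, and all except that of Tspan1 (upper limit 1.13) end below a 2-fold rise.

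Among the tetraspanins of blood cells, Cd53, a marker of leukocytes, had the smallest p of all relatives. Its counts of 29 and 34 in control islets stood against 12 and 12 in knockout islets, or 3.42 and 3.60 CPM against 1.24 and 1.58 CPM. The groups were well apart and the replicates close (fold 0.401, 95% CI 0.224 to 0.717, unadjusted p = 0.00661, adjusted p = 1, edgeR). Of the 15 macrophage markers 14 were tested and all 14 had negative log2 fold changes, with a median of -0.43 and none called. Ptprc, the CD45 gene of all leukocytes, was the lowest of them at -0.94, and the list summed to 128 and 103 CPM in control and 90.0 and 78.3 CPM in knockout libraries. The part of these cells in the value of Cd53 was not tested, and in bulk RNA fewer cells of a type cannot be told apart from less RNA per cell. Tspan32, of blood cells, had counts of 2 and 7 in control islets and of 0 and 1 in knockout islets, and Cd37, mainly of B cells, 1 and 3 against 2 and 0. Both were too low to test.

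The specialised members were at or near the floor. Upk1a and Upk1b, the uroplakins of the bladder lining, gave 2 counts each over the 4 libraries, and so did Prph2, a protein of the photoreceptor disc rim. Rom1, the partner of Prph2 in the disc rim, was an exception with counts of 45 and 36 in control and of 36 and 30 in knockout islets (log2 fold change -0.24, 95% CI -0.95 to 0.46).

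Summed over all 30 relatives, the level was 413 and 404 CPM per kilobase in control and 367 and 396 in knockout libraries. The knockout sums were under both control sums, and the knockout mean was 0.934 of the control mean (exact permutation test, two-sided, p = 0.333, the smallest that 2 against 2 libraries can give). The mean difference was -27.1 CPM per kilobase, in the same direction as the loss of 29.5 from Tspan7. With the length of the transcript with the longest coding sequence the sums were 844 and 820 in control and 749 and 834 in knockout libraries, which overlapped (0.951 of control, exact permutation p = 0.667).

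**Figure D4:**
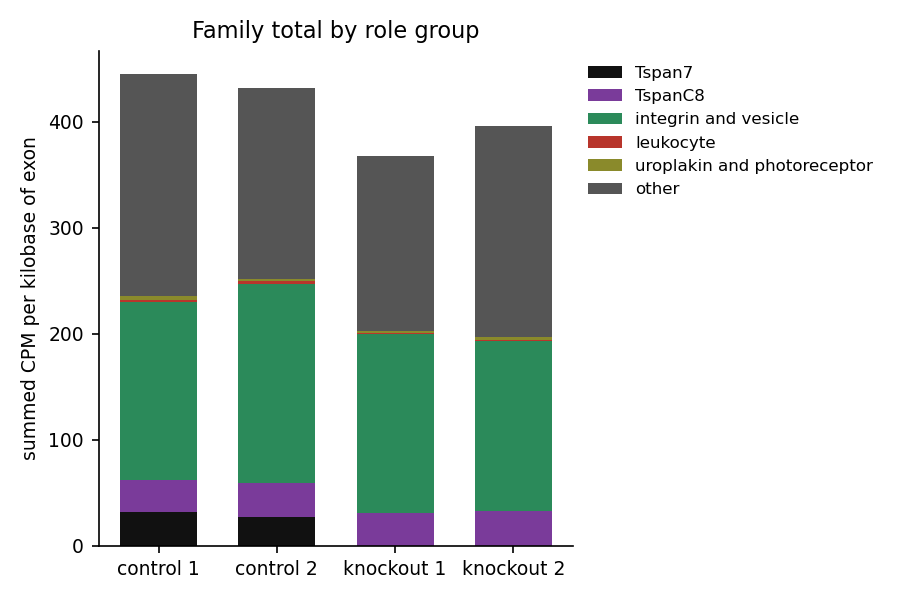
Summed CPM per kilobase of exon of all 31 members in each library, stacked by role group with Tspan7 at the base. The relatives sum to 413 and 404 in control and to 367 and 396 in knockout libraries, and the black part for Tspan7 is seen in the controls only.

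The confidence intervals bound how large a rise these libraries would allow. The upper limit was under a 1.5-fold rise for 15 of the 23 tested relatives and under a 2-fold rise for 22. Tspan1, one of the lowest tested members, had the widest, 2.19-fold. In CPM per kilobase the largest gains within the intervals were 18.4 for Tspan13, 17.9 for Tspan2 and 15.1 for Tspan3. For 0 of the 23 did the upper limit reach the amount lost with Tspan7. This holds for 1 relative at a time and per kilobase of all exons, and RNA levels do not show protein levels. It does not hold for every length. Divided by the mean length of the protein-coding transcripts, control levels were 144 CPM per kilobase for Tspan3, 115 for Tspan2 and 47.4 for Tspan7. The intervals of Tspan3 and Tspan2 reached rises of 1.42-fold and 1.45-fold, which at those levels exceed the amount lost with Tspan7. Divided by the longest transcript, the levels were 72.1 for Tspan3 and 29.5 for Tspan7. There the upper limit of Tspan3 also exceeds the amount lost.

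The direction of single relatives rested on single libraries in many cases. Only 9 of the 23 kept the sign of their log2 fold change when each library was left out in turn (Tspan5, Cd63, Cd82, Cd151, Tspan8, Tspan9, Cd53, Tspan13 and Tspan31). Cd53 ran from -1.49 to -1.14, Cd151 from -0.38 to -0.22 and Tspan9 from 0.12 to 0.26. In 7 relatives, among them Tspan3, Tspan5, Tspan12 and Tspan13, control replicate 1 and knockout replicate 2 both lay above the other libraries, and in 6, among them Cd9, Cd82, Tspan4 and Tspan14, both lay below. Over all tested genes 22.0% had the first order and 3546 of 16924 the second. The 15 islet markers had the first order in 8 cases and the second in 2. The acinar sums given above were higher in control replicate 1 and knockout replicate 2. The part of islet and acinar cells in the values of the relatives was not tested.

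**Figure D5:**
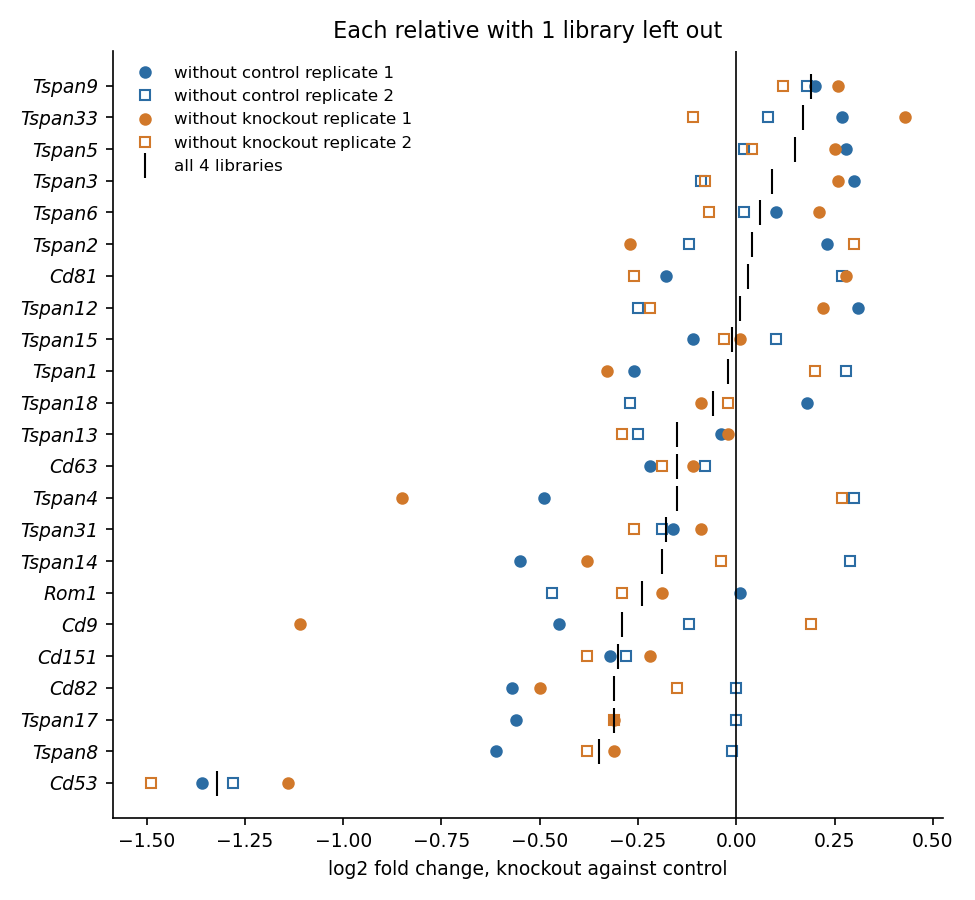
Log2 fold change of each tested relative, knockout against control, with all 4 libraries (black ticks) and with 1 library left out (blue, control left out; orange, knockout left out; filled circles replicate 1, open squares replicate 2). Marks of Cd53 stay between -1.49 and -1.14, while those of Tspan2, Cd81, Tspan4 and Cd9 fall on both sides of 0.

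Genes of proteins that tetraspanins bind, carry or need were read in the same fit. Of 40 such genes 36 were tested, 15 with positive and 21 with negative values and a median of -0.04. None was called by edgeR, DESeq2 or limma-voom, and 3 were lower and 0 higher at an unadjusted p under 0.05, against 1.96% and 1.55% of all genes. In 9 both knockout libraries were under both controls and in 2 above them, against 15.0% and 15.3% of all genes. Cd44, the hyaluronan receptor gene, measured 116 and 148 CPM in control and 79.8 and 72.9 CPM in knockout libraries, with no overlap (log2 fold change -0.79 ± 0.16, unadjusted p = 0.00106, adjusted p = 1, edgeR). It was called when low counts were not filtered (adjusted p = 0.00304). Adam10, the protease that TspanC8 members carry, measured 102 and 129 CPM against 90.3 and 86.5 CPM (-0.39 ± 0.15, unadjusted p = 0.0357, edgeR), and the integrin gene Itgav 652 and 641 CPM against 543 and 516 CPM (-0.29 ± 0.12, unadjusted p = 0.0496, edgeR). Both were without overlap, and neither was called. Cd44 and Itgav are also expressed by macrophages, whose markers summed lower in the same libraries, and their part was not tested.

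The epithelial adhesion gene Epcam stood at -0.31 ± 0.16. On the positive side Gria2, an AMPA receptor subunit gene, measured 40.8 and 35.1 CPM in control and 44.8 and 51.4 CPM in knockout libraries (0.34 ± 0.15, 95% CI -0.01 to 0.69), and Gria3, another subunit, 28.2 and 26.8 CPM against 34.7 and 32.0 CPM (0.28 ± 0.15, 95% CI -0.06 to 0.62). In both the knockout libraries were above the controls, with intervals that include 0. Ptgfrn, a binding partner of CD9 and CD81, stood at 0.24 ± 0.33 and the Wnt co-receptor gene Lrp6 at 0.09 ± 0.16. Among the genes not tested were Ndp, Gria1 and Drd2, with at most 3 counts in any library.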

How the data were processed

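Islet RNA was sequenced in 2 control and 2 knockout libraries made with a directional kit, per the labels' protocols. The authors deposited unnormalized read counts for each Ensembl gene. HISAT2, featureCounts and the GRCm39 build are named, per the submitters' processing notes, with no version. Annotation release, strand setting and the handling of reads with several matches: not given in the sources used here. Symbols (52403 of 52636 identifiers), exon lengths and coding sequences came from GENCODE M21 on GRCm38, so no coordinates are given. Protein sequences were not used here, and closeness to Tspan7 was measured on coding sequence.

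Counts were fitted across all genes in edgeR 4.0.16 (R 4.3.3): filterByExpr at a minimum count of 10 (16924 genes), trimmed-mean (TMM) scaling, robust quasi-likelihood F test, two-sided, no covariate, Benjamini-Hochberg adjustment over all tested genes, threshold 0.05. SE and 95% CI come from that fit. Alternatives used DESeq2 1.42.0, limma 3.58.1, other scalings and lengths, and libraries left out. The fit was tested on simulated counts. Coding sequences were aligned with Biopython 1.88. The members and lists were chosen with earlier results of these data known. Values per library were set for Tspan7, the 10 members of highest control level, the 4 of smallest p per direction the 3 closest in sequence and further members of each role group described. Up to 4 partner genes per direction were named by p. The crossed pairing and the length of the transcript with the longest coding sequence were added after seeing the data. Values of some genes of the lists are not reported here.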

Additional observations from a re-analysis of the deposited data

How the results depend on the processing

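With 2 libraries a group, small differences were not detectable in any of the 23 tested relatives. The interval ended under a 1.5-fold rise in 15 of them. That count includes wide intervals about a negative value, such as -1.06 to 0.44 for Tspan17. Of the tested relatives 0 were called under all 14 alternatives, and Tspan7 was called under each (log2 fold change -9.54 to -9.23). Over all genes the 1 call became 4 with DESeq2, 16 with the likelihood ratio test and 62 with no low-count filter, and with libraries left out 1 to 48 (48 without control replicate 1, 2 without control replicate 2). With no low-count filter 1 partner gene (Cd44) was called. The median of the relatives was -0.16 with library totals only, -0.14 with limma-voom or no low-count filter, and -0.16 to -0.01 with libraries left out. The median of the partner genes was -0.05 with library totals only, -0.03 with no low-count filter or the crossed pairing, and -0.08 to -0.02 with libraries left out. The rank of Tspan7 in control islets was 7 by the longest transcript or the mean coding transcript length and 4 by the transcript with the longest coding sequence (shares 4.96%, 4.24% and 12.6%), and 5 to 6 with libraries left out. For these changes the cause was not tested, beyond the lengths themselves. The mean sum of the relatives in knockout islets was 0.899 to 0.970 of the control mean over all settings tried. Positive values numbered 8 of 23 tested relatives, 7 with library totals only, 9 with no low-count filter and 6 to 10 with libraries left out. Among the genes named for level, p or sequence, values changed sign only with libraries left out: Cd81 ran from -0.26 to 0.28, Tspan2 from -0.27 to 0.30, Tspan3 from -0.09 to 0.30, Tspan33 from -0.11 to 0.43, Tspan6 from -0.07 to 0.21, Lrp6 from -0.07 to 0.24 and Ptgfrn from -0.09 to 0.49.

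Whether the replicate numbers pair the libraries is not known, and nothing in the labels says what a number stands for. Deviations of same-numbered libraries from their group means had a correlation of -0.32 over 16924 genes. With 2 libraries a group this is a single correlation, whose sign 1 difference shared by many genes can set, so it cannot decide the pairing. With the replicate block 6 genes were called (1 higher, 5 lower) and 0 relatives. With the crossed pairing 2 were called (1 higher, 1 lower) and 0 relatives.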
